A study of Mus musculus with 9 samples.

Results

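The comparison described here set 3 libraries of cultures given TNF-α together with WBT against 3 libraries of cultures given TNF-α alone, over every gene with a mean of at least 1 FPKM in these 6 libraries. FPKM is a count of sequenced fragments corrected for transcript length and for the depth of the library. The limit on the mean kept 12703 of the 56289 genes in the gene table (22.6%), of which 11140 are annotated as protein coding, and 27676 of the 144726 transcripts in the transcript table. These genes held at least 99.41% of the FPKM of each library. At the limit, Gm42929 lay just inside with a mean of 1.0002 FPKM and 4930513N10Rik just outside with 0.999 FPKM.

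The cultures are labelled as RAW264.7, a mouse macrophage-like line, and the series has 9 libraries in 3 groups, untreated (Con), TNF-α (recombinant human protein at 20 ng/ml) and TNF-α at the same dose with WBT at 1.0 μg/ml, with 3 libraries each. Both TNF-α groups were sampled at 24 h. WBT is the Wang Bi tablet, a herbal preparation given for rheumatoid arthritis, here as a water extract, and the labels name its group WBP. The labels give neither genotype nor passage, and do not say whether the replicates of a group were cultures of different days, so a p-value measures the spread between these libraries. Estimated depth was 16855279 to 19834848 fragments with TNF-α+WBT and 18905326 to 22446958 with TNF-α, and a gene compared held a median of 536 fragments in a library.

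The label was checked against marker genes. Of 16 macrophage genes 2 (Cd14 and Cd68) lay above 1 FPKM in all 6 libraries, and 7 were listed at 0 in all 6 (Ctss, Cybb, Tyrobp, Adgre1, Itgam, Spi1 and Ptprc). The 16 genes summed to between 7.11 and 8.22 FPKM with TNF-α and between 7.24 and 8.89 FPKM with TNF-α+WBT. By contrast 12 of 16 fibroblast genes and 8 of 12 Schwann cell genes lay above 1 FPKM throughout, while none of 7 epithelial, 6 endothelial or 7 T and B cell genes did. These markers go against the label of a macrophage-like line, and what the cultures were was not tested. The results below are therefore given for the cultures as sequenced, without a cell type.

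TNF-α binds receptors whose signal frees the transcription factor NF-κB from its IκB inhibitors. NF-κB then switches on chemokines, adhesion molecules and proteases, and also its own inhibitors, which close the loop.

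March8 was the only gene past a Benjamini-Hochberg adjusted p of 0.05 in limma, 1 of 12703 or 0.00787%. It encodes a membrane-bound ubiquitin ligase known to send surface proteins, the transferrin receptor among them, to the lysosome. March8 (ENSMUSG00000025702, GRCm38 chromosome 6, 116338024 to 116409540, plus strand) had TNF-α values of 11.8, 12.6 and 10.8 FPKM and TNF-α+WBT values of 26.9, 25.6 and 28.9 FPKM, where Con held 15.7, 13.3 and 12.9 FPKM. Each TNF-α+WBT library lay above all 6 others. The means were 11.8 ± 0.884 and 27.1 ± 1.70 FPKM (SD, n = 3 each), a 2.30-fold increase with a log2 fold change of 1.199 (95% interval of 0.9951 to 1.403, adjusted p = 0.00581, limma). Without TNF-α+WBT replicate 1 the adjusted p was 0.0607, past the threshold no longer. With the replicate number as a block in limma it was 0.0842, also not past the threshold. With voom on estimated fragments the log2 fold change was 1.79.

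The transcripts of March8 were divided by their ends. One long last exon (chromosome 6, 116406025 to 116409540, 3516 bases) is held by March8-201, March8-202 and March8-213. Together they stood at 5.74, 3.61 and 3.71 FPKM with TNF-α and at 18.9, 17.9 and 20.5 FPKM with TNF-α+WBT. The 13 other March8 transcripts summed to 6.10, 8.999 and 7.14 FPKM with TNF-α and to 8.01, 7.67 and 8.45 FPKM with TNF-α+WBT, so that these groups overlapped while those of the long transcripts did not. An exact two-sided permutation test gave p = 0.1 for the long transcripts, the smallest that 3 against 3 allow, and p = 0.6 for the others. March8 was picked for the difference of its total between these same libraries, so these p-values describe the division and are no independent test of it. Which of the long transcripts took the values differed between replicates. March8-213 held 17.1 FPKM in TNF-α+WBT replicate 1 and 1.45 and 1.96 FPKM in the other two, where March8-202 held 9.54 and 12.6 FPKM and March8-201 held 6.89 and 5.90 FPKM. No transcript of March8 passed on its own, and no other annotated gene shares an exon base with it.

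The other MARCH ligases are membrane-bound enzymes of the same family. Of 11 in the list 7 were compared, March8 included, and none of the other 6 passed. March3 stood at 3.80, 5.18 and 4.18 FPKM with TNF-α and at 3.01, 3.97 and 3.43 FPKM with TNF-α+WBT. March5, a ligase of the outer mitochondrial membrane, stood at 62.1 to 64.5 FPKM with TNF-α and between 59.9 and 60.6 FPKM after addition of WBT. The log2 fold changes of March2, March6, March7 and March9 lay between -0.04 and 0.00.

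Beyond March8 the differences were small. The median size of a log2 fold change was 0.0709, and 89.8% of genes differed by less than 1.2-fold. For 12103 genes (95.3%) the 95% interval of the fold change lay inside 2-fold in both directions, and for 82.5% it lay inside 1.5-fold. Precision followed expression, with a median standard error on the log2 scale of 0.164 for genes of 1 to 5 FPKM and of 0.0453 for genes of 100 FPKM or more. In the same model and over the same genes, 1395 (11.0%) passed an adjusted p of 0.05 between TNF-α and Con, 842 upward and 553 downward.

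For 887 genes the unadjusted p was under 0.05, 422 higher (3.32%) and 465 lower (3.66%) with WBT, 6.98% in all where 5% would pass with no difference. The groups did not overlap in 847 genes that were higher (6.67%) and 819 that were lower (6.45%). With no difference, groups of 3 against 3 lie apart in either direction with a probability of 0.1. The study's limits on p and fold change, with the p taken here as unadjusted (p under 0.05, more than 2-fold), were passed by 14 genes (0.11%), 10 higher and 4 lower.

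**Figure D1:**
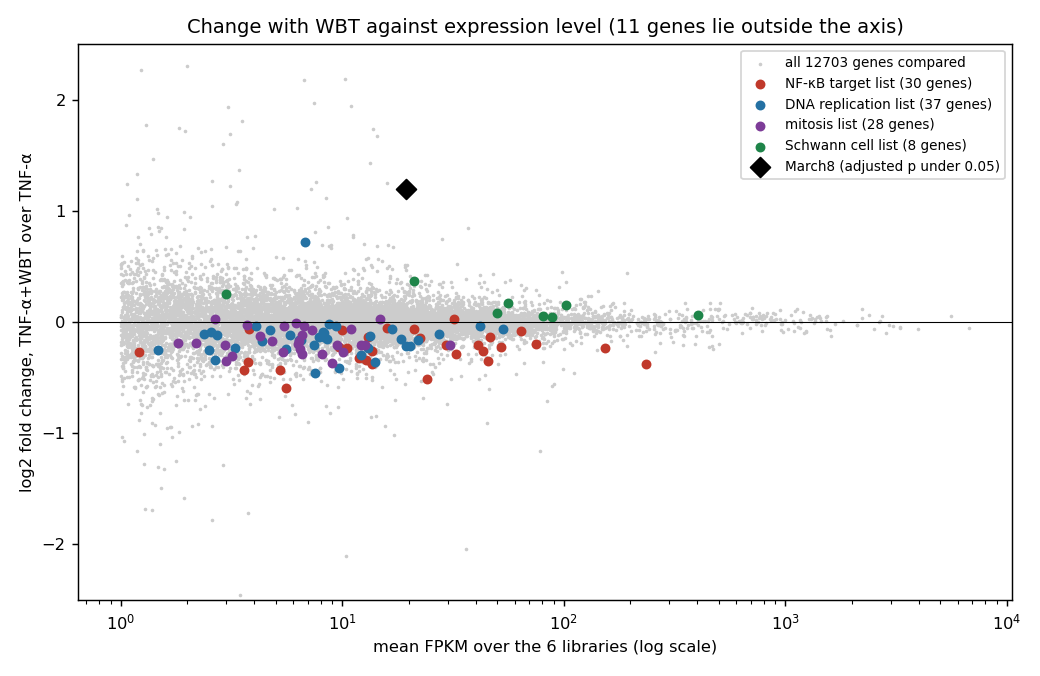
Log2 fold change of TNF-α+WBT over TNF-α (vertical axis) against the mean FPKM of the 6 libraries (horizontal axis, log scale) for 12703 genes in grey, with the genes of 4 lists coloured and March8 as a black diamond. Most genes lie close to 0, NF-κB target, DNA replication and mitosis genes lie mostly below it, the 8 Schwann cell genes above it, and March8 stands apart at 1.199.

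Among genes whose groups did not overlap, the 8 with the smallest p in the upward direction were March8, Atf3, Kcna1, Tfrc, Ndrg4, Sema4f, Fam204a and Hes1. Apart from March8 none passed after adjustment over all genes. Atf3, a stress-induced transcription factor, stood at 21.5, 19.5 and 21.2 FPKM with TNF-α and at 28.7, 27.6 and 26.9 FPKM with TNF-α+WBT. It lay far higher in Con, at 62.0 to 63.1 FPKM, so the WBT libraries stood between the other groups. The log2 fold change was 0.42 (SE 0.05, limma adjusted p = 0.0818).

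Tfrc encodes the transferrin receptor, through which cells take up iron. It held 42.3, 36.7 and 43.1 FPKM with TNF-α and 55.8, 53.5 and 55.6 FPKM with TNF-α+WBT, and Con lay at 35.4 to 37.1 FPKM. Here the WBT libraries were the highest of all 9, as for March8, at a log2 fold change of 0.44 (SE 0.06, limma adjusted p = 0.153). In Ndrg4 the WBT libraries were again the highest, at 2.90 to 2.98 FPKM with TNF-α, 4.25 to 4.51 FPKM with TNF-α+WBT and 3.17 to 3.87 FPKM in Con. Fam204a, which shares exon bases with 4933412A08Rik, stood at 10.0 to 10.5 and 13.9 to 17.8 FPKM.

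Kcna1, a voltage-gated potassium channel gene, held 5.64, 5.19 and 6.002 FPKM with TNF-α and 8.39, 8.31 and 7.495 FPKM with TNF-α+WBT. Con stood above both at 26.2 to 27.8 FPKM. Sema4f, a semaphorin gene, and Hes1, a repressor switched on by Notch signalling, showed that order too, at 5.72 to 5.83, 6.86 to 7.20 and 19.6 to 20.2 FPKM for Sema4f and, as means, 17.7, 21.3 and 30.3 FPKM for Hes1 (TNF-α, TNF-α+WBT and Con). Their log2 fold changes with WBT were 0.52, 0.29 and 0.26 (adjusted p of 0.153, 0.218 and 0.218, limma). The comparisons of TNF-α with Con and with TNF-α+WBT share the TNF-α libraries.

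In the downward direction the 8 genes were Afg3l1, Meis1, Ccl2, Srf, Ripk2, Plk2, Selenoi and Vcam1. Ccl2, the chemokine that draws monocytes, stood at 265, 262 and 269 FPKM with TNF-α and at 210.0, 198 and 204 FPKM with TNF-α+WBT, against 32.7 to 38.1 FPKM in Con. All WBT libraries lay below all TNF-α libraries and remained far above Con. The log2 fold change was -0.38, that is 0.77 times the TNF-α level (SE 0.06, limma adjusted p = 0.174). Ripk2, the kinase that relays NOD receptor signals to NF-κB, had 14.8, 13.9 and 14.4 FPKM with TNF-α, 10.9, 11.9 and 11.1 FPKM with TNF-α+WBT and 6.30 to 6.53 FPKM in Con.

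Afg3l1, a subunit of a protease of the inner mitochondrial membrane, was even within TNF-α at 19.7, 19.8 and 19.9 FPKM and stood at 14.3, 15.1 and 13.4 FPKM with TNF-α+WBT. Con held 14.4 to 15.5 FPKM, and 2 of the 3 WBT libraries lay below it. Its log2 fold change was -0.47 (SE 0.06, limma adjusted p = 0.0818). Meis1, a homeobox transcription factor gene that shares exon bases with Gm16140 and Gm37818, had its lowest libraries with WBT, with 4.71, 4.25 and 4.65 FPKM for TNF-α, 2.86, 2.95 and 2.57 FPKM for TNF-α+WBT and 3.60 to 4.25 FPKM for Con. Selenoi, an enzyme of phospholipid synthesis, also had its lowest libraries with WBT, at 3.94 to 4.54 FPKM against 6.01 to 8.23 FPKM with TNF-α. The difference was -0.67 on the log2 scale, and -1.34 with voom. Srf, the transcription factor behind serum-induced genes, and Plk2, a polo-like kinase, had log2 fold changes of -0.27 and -0.28.

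**Figure D2:**
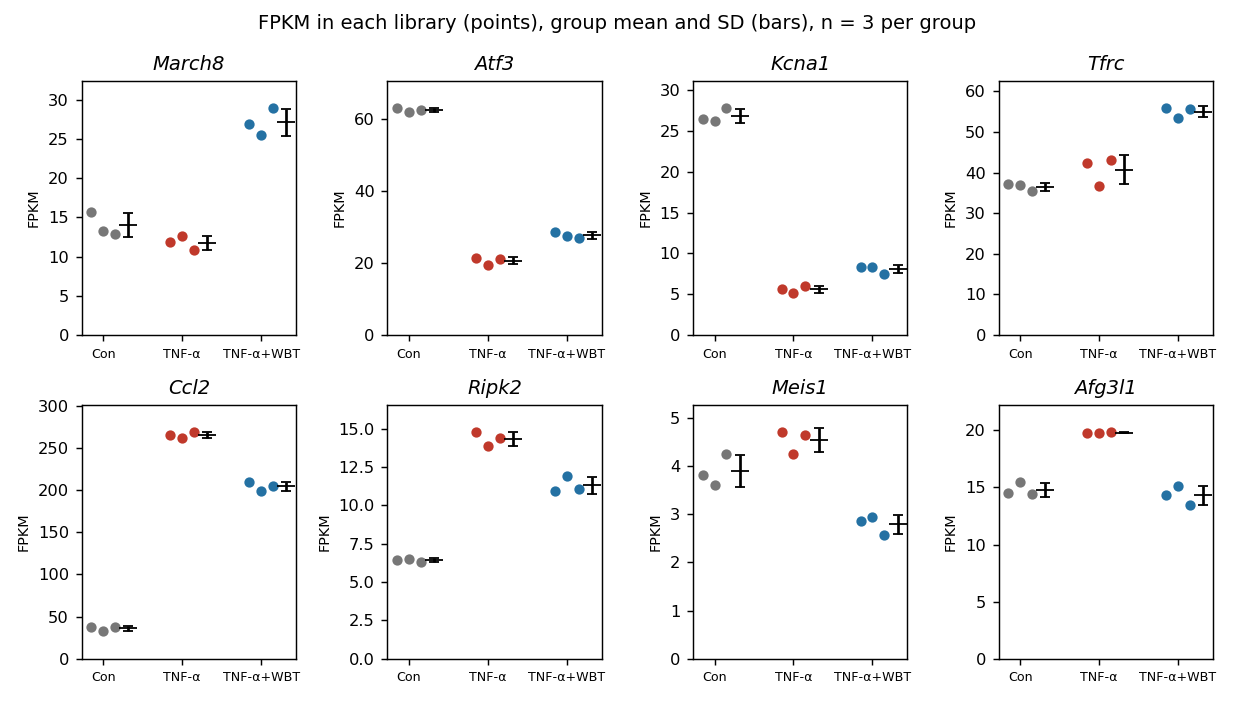
FPKM (vertical axis) of 8 genes in each library of the 3 groups, as points, with the group mean and SD beside them (n = 3 per group). In each gene the TNF-α+WBT and TNF-α points do not overlap. March8 and Tfrc are highest with TNF-α+WBT, and Ccl2 and Ripk2 lie between the other groups.

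The NF-κB target list had 40 genes, 30 of which were compared. Of these 29 had a negative log2 fold change with WBT and 1, Cflar, a positive one (0.03), and 15 (11 to 19 when a library was left out) had an unadjusted p under 0.05, all lower, where 3.66% of all genes were called lower. None passed after adjustment over all genes. The median log2 fold change was -0.23, beside 0.00 over all genes. Summed over the list, the libraries held 1135 to 1158 FPKM with TNF-α, 948 to 969 FPKM with TNF-α+WBT and 371 to 376 FPKM in Con. By this sum, in which genes of high FPKM weigh most, the WBT libraries lay below the TNF-α libraries and well above Con. Their margin below the TNF-α libraries was several times the spread of either group. The list was chosen with earlier results of these data known.

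Among secreted and surface products, Vcam1, which lets leukocytes attach, stood at 45.1, 50.3 and 45.9 FPKM with TNF-α and at 39.0, 40.4 and 38.4 FPKM with TNF-α+WBT. Ccl7, a monocyte chemokine, stood at 49.3 to 53.3 and at 36.9 to 41.6 FPKM, and Csf1, the growth factor of macrophages, at 52.5 to 60.3 and at 46.9 to 48.8 FPKM. C3, the central complement protein, held 161 to 174 FPKM with TNF-α and 135 to 153 FPKM with TNF-α+WBT, and Mmp9, a gelatinase, held 3.95 to 4.25 and 2.89 to 3.29 FPKM. None of these pairs of groups overlapped. Their log2 fold changes were -0.26, -0.35, -0.23, -0.23 and -0.43, where the values between TNF-α and Con were 2.13, 1.59, 1.36, 4.23 and 3.92.

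The list also holds inhibitors of the pathway. Nfkbia encodes IκBα and stood at 78.7, 81.7 and 80.3 FPKM with TNF-α and at 69.3, 72.3 and 68.8 FPKM with TNF-α+WBT, a log2 fold change of -0.19 (SE 0.05, limma adjusted p = 0.538). Tnip1, a partner of A20, held 42.2 to 45.6 and 35.4 to 40.7 FPKM. Tnfaip3, A20 itself, varied too widely to tell, with 17.1, 13.9 and 10.0 FPKM against 14.9, 14.2 and 8.47 FPKM. Of the subunits, Nfkb2 held 46.4 to 49.8 and 43.1 to 45.4 FPKM without overlap, while Nfkb1 and Relb overlapped.

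The cytokines measured as protein in the study, IL-1β and IL-6, could not be followed in RNA. Il1b was listed at 0 in all 9 libraries, as was Tnf. Il6 held at most 1.0 estimated fragment in any library, which is under the 3 fragments that a count of 0 allows, so no fold change is given.

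Promoters in the NF-κB list were read from RefSeq. The list was made of NF-κB targets, so a high share with κB letters describes the list and tells nothing about WBT. The 250 bases before the start were searched on both strands for the κB letters (GGG, any 2 bases, TTTCC), and 21 of the 30 genes compared had a promoter in the table. The letters were present in 6 of these (28.6%), Nfkbia, Nfkb2, Rel, Tnfaip3, Cxcl1 and Csf1, and in 378 of all 27025 promoters (1.4%). Nfkbia and Csf1 are shown as examples, on the strand of the gene with the match in capitals, 29 and 154 bases before the start at its first base. Their windows are chr12:55492648-55492897 (minus strand) and chr3:107760470-107760719 (minus strand) of GRCm38.p6.
Nfkbia: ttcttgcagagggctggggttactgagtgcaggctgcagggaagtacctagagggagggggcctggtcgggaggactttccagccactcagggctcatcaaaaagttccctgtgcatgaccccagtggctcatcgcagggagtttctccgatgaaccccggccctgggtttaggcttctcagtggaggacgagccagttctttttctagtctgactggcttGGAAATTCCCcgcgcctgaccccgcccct
Csf1: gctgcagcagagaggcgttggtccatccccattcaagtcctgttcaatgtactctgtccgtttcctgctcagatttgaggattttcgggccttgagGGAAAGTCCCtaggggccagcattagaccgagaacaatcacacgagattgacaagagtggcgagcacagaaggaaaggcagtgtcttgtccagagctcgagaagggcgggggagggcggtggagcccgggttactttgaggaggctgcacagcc

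Genes of cell division mostly had negative log2 fold changes too. Of 37 DNA replication genes 36 had a negative log2 fold change, 12 of them with an unadjusted p under 0.05 where 3.66% of all genes were called lower, and the median was -0.15. The 12 became 6 without TNF-α+WBT replicate 2, at a median of -0.10, and 7 and 8 without TNF-α replicate 1 and Con replicate 3. Of 28 mitosis genes 26 were negative, 8 with an unadjusted p under 0.05, and the median was -0.19. The 8 became 4 without TNF-α replicate 3 and 5 without TNF-α+WBT replicate 2, and the median was -0.12 without TNF-α replicate 1. None was called higher in either list, and none passed after adjustment over all genes. In a bulk sample fewer dividing cells and less RNA per cell cannot be told apart.

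Rrm2, the small subunit of the enzyme that makes deoxynucleotides, stood at 10.0, 7.64 and 8.62 FPKM with TNF-α and at 6.67, 5.79 and 6.54 FPKM with TNF-α+WBT. Mcm5, part of the replicative helicase, stood at 16.3, 14.1 and 16.9 and at 12.9, 11.2 and 12.9 FPKM, with Con at 11.7 to 13.1 FPKM. Both had groups that did not overlap, and their log2 fold changes were -0.46 and -0.36 (adjusted p of 0.538 and 0.526, limma). Cdc45 and Rrm1 had -0.41 and -0.22. The one positive gene, Fen1, was uneven within groups, with 10.96, 2.75 and 2.97 FPKM against 10.3, 9.23 and 4.37 FPKM.

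For mitosis, Birc5 (survivin) held 11.3, 10.6 and 11.2 FPKM with TNF-α and 9.08, 8.60 and 9.72 FPKM with TNF-α+WBT, while Top2a, the topoisomerase that untangles chromosomes, held 34.5, 31.9 and 32.3 and 30.1, 27.4 and 27.8 FPKM. Plk1 and Nusap1 had log2 fold changes of -0.25 and -0.30 without overlap. Seen by library, the median of the mitosis list relative to the TNF-α mean was 0.10, -0.11 and 0.02 in the TNF-α libraries and -0.11, -0.21 and -0.20 once WBT was added. TNF-α replicate 2 thus lay at the level of TNF-α+WBT replicate 1, and the groups met. For DNA replication the medians were 0.04, -0.06 and 0.01 against -0.11, -0.23 and -0.14, without overlap. In both lists replicate 1 was the highest and replicate 2 the lowest of each group, Con included. Whether the replicate numbers mark a batch was not tested.

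The promoter windows of these genes were searched in the same way for the E2F letters TTTCCCGC or TTTGGCGC, which were present in 6 of 30 DNA replication promoters, none of 24 mitosis promoters, 2.79% of the promoters of genes compared and 1.35% of all promoters. These shares describe the lists and tell nothing about WBT. Mcm5 is shown, with the match in capitals 149 bases before the start (chr8:75109259-75109508, plus strand, GRCm38.p6).
Mcm5: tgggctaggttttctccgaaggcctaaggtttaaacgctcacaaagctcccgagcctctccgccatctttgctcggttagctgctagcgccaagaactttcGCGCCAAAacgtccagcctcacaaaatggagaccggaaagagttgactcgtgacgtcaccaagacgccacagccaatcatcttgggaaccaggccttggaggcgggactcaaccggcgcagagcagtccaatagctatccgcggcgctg

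**Figure D3:**
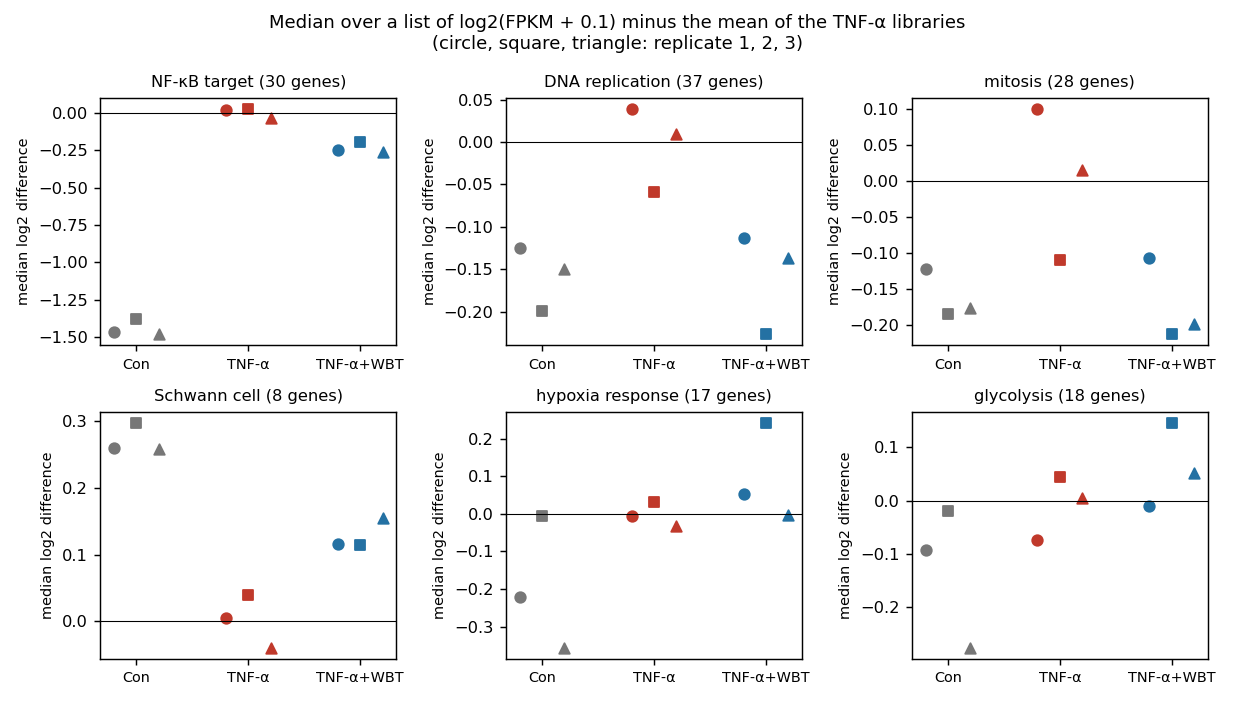
Median over the genes of each list of log2(FPKM + 0.1) minus the mean of the TNF-α libraries (vertical axis), for each library of the 3 groups, with replicates 1, 2 and 3 as circle, square and triangle. For NF-κB targets TNF-α+WBT lies at -0.25, -0.19 and -0.26, below TNF-α and well above Con, while the mitosis medians of TNF-α replicate 2 and TNF-α+WBT replicate 1 coincide. In the hypoxia list replicate 2 is the highest of each group.

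Genes of MHC class I presentation, which display peptides to T cells, were lower by little. Of 19 genes 16 had a negative log2 fold change and 6 an unadjusted p under 0.05, all lower, at a median of -0.08, where 3.66% of all genes were called lower. The 6 became 1 without TNF-α+WBT replicate 1, 2 without TNF-α replicate 2 or TNF-α+WBT replicate 3, where the median was -0.06 and -0.03, and 4 without TNF-α replicate 3. B2m, the light chain of class I molecules, held 423, 447 and 430.1 FPKM with TNF-α and 403, 414 and 411 FPKM with TNF-α+WBT, a log2 fold change of -0.08 where that between TNF-α and Con was 1.03. Tapbp and H2-Q4 had -0.16 and -0.17, and H2-Q4 has near-identical copies between which fragments may have been divided. In the interferon response list 2 of 27 genes had an unadjusted p under 0.05 (Bst2 and Irgm1, both lower), where 6.98% of all genes had one in either direction. The median was -0.07, and ran from -0.16 without TNF-α+WBT replicate 2 to -0.04 without TNF-α+WBT replicate 1, with 4 and 3 genes called lower.

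Signalling genes upstream of NF-κB were tested as well. In the TNF receptor list 4 of 24 genes had an unadjusted p under 0.05, all lower, at a median of -0.05, where 3.66% of all genes were called lower. The 4 became 1 without TNF-α replicate 2, TNF-α replicate 3 or TNF-α+WBT replicate 3, and 2 without TNF-α replicate 1 or TNF-α+WBT replicate 2. Tnfrsf1a, the main TNF receptor, stood at 34.7, 56.1 and 56.8 FPKM with TNF-α and at 32.2, 37.7 and 31.2 FPKM with TNF-α+WBT, so that TNF-α replicate 1 lay within the WBT range. Without that replicate the log2 fold change was -0.75 (adjusted p = 0.0479, limma), where it was -0.52 with all libraries. Chuk, which encodes IKKα, had a log2 fold change of -0.09, and its direction reversed under voom.

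The Schwann cell markers all lay in the opposite direction. Each of the 8 genes compared had a positive log2 fold change, 3 with an unadjusted p under 0.05 where 3.32% of all genes were called higher, at a median of 0.12. Without TNF-α replicate 3 the median was 0.05, and 7 of the 8 were positive. Ngfr, the low-affinity neurotrophin receptor, was very even within groups, at 97.6, 96.7 and 96.7 FPKM with TNF-α and at 107, 107 and 109.8 FPKM with TNF-α+WBT, where Con held 165 to 174 FPKM. Cdh19 and S100b had log2 fold changes of 0.17 and 0.25, and Sox10, Foxd3 and Erbb3 between 0.05 and 0.08. None of the 8 genes passed after adjustment over all genes. The list summed to 752 to 813 FPKM with TNF-α and to 817 to 846 FPKM with TNF-α+WBT. Fibroblast markers summed to 5533 to 5791 and 5432 to 5560 FPKM, overlapping, and the part that a shift in cell types has in the lists above was not tested.

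Immediate early genes, which answer stimuli within minutes, were divided. Jun was higher with WBT at 46.9, 49.3 and 44.9 FPKM against 41.3, 40.9 and 38.5 FPKM (log2 fold change 0.22, adjusted p = 0.404, limma), and its exons overlap those of Junos. Dusp1, Srf and Ccn1 were lower, at -0.13, -0.27 and -0.19. Over the 32 genes the median was 0.01.

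Stress and lipid genes showed few calls. Of 24 NRF2 targets, the antioxidant genes, 15 heat shock genes and 12 genes of fatty acid synthesis none had an unadjusted p under 0.05, and their medians lay between -0.00266 and 0.00106 on the log2 scale. In glycolysis 16 of 18 genes were positive at a median of 0.08 and 1, Hk2, had an unadjusted p under 0.05. Among cytosolic ribosomal proteins 63 of 83 were positive at a median of 0.03. Of 18 p53 targets 12 were positive. An unadjusted p under 0.05 was found for 5 higher genes (Bbc3, Phlda3, Sesn2, Trp53inp1 and Eda2r, log2 fold changes of 0.10 to 0.17), beside 3.32% of all genes, and for Plk2 in the lower direction. None passed after adjustment, and the 5 became 2 without TNF-α+WBT replicate 1 or 2, and 3 without TNF-α replicate 1 or 3 or TNF-α+WBT replicate 3. In cholesterol synthesis Lss, lanosterol synthase, was higher at 33.7 to 36.6 FPKM against 25.8 to 28.8 FPKM, while 18 of the 23 genes were negative.

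**Figure D4:**
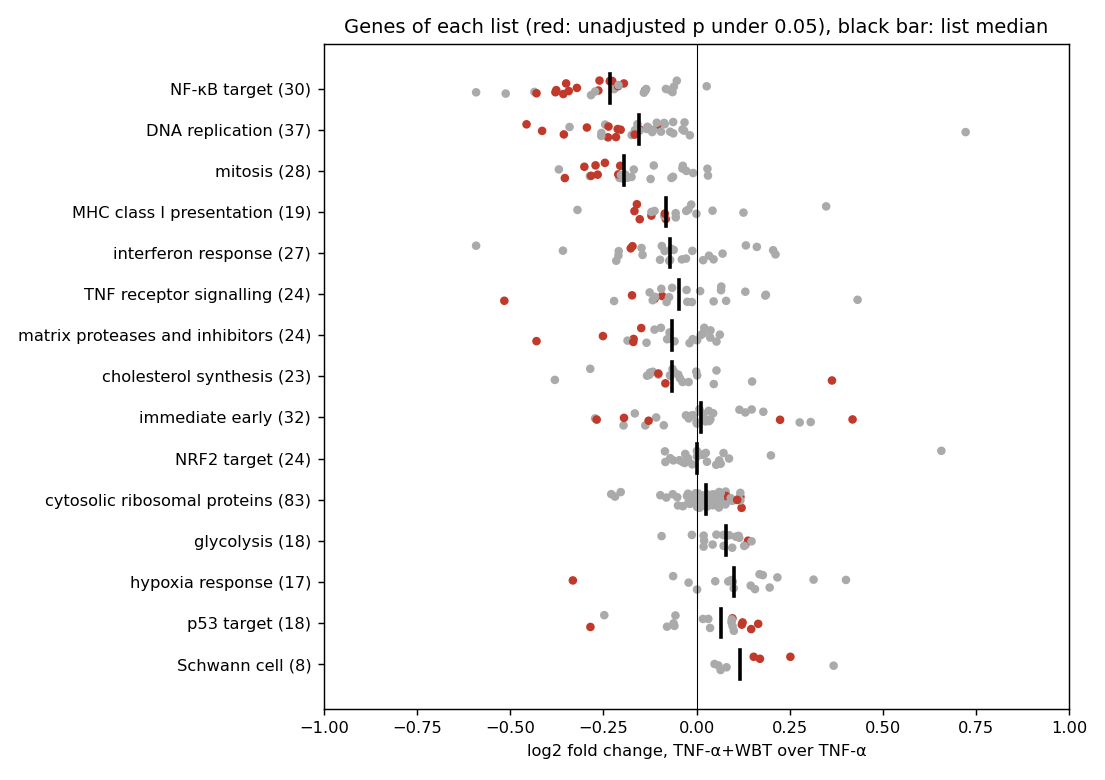
Log2 fold change of TNF-α+WBT over TNF-α (horizontal axis) for the genes compared in 15 lists, with their number in brackets, red where the unadjusted p was under 0.05 and with a black bar at the list median. The NF-κB target, DNA replication and mitosis lists lie furthest to the left, with medians of -0.23, -0.15 and -0.19, and the Schwann cell list lies to the right of 0.

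Of these 14 genes past both limits, 7 had groups that did not overlap, as did 1666 of the 12703 genes compared. A library under 0.2 FPKM was present in 6 of the 14. Exon bases are shared with another annotated gene by 11 of the 14, as by 37.7% of all genes compared. Snhg20 is a long noncoding RNA named as a small nucleolar RNA host gene. It had 11.8, 4.82 and 3.94 FPKM with TNF-α and 21.3, 19.1 and 21.3 FPKM with TNF-α+WBT. Of the 3 TNF-α libraries replicate 1 thus differed more from the other two than they from each other, and without it the adjusted p was 0.0336 (limma) where it was 0.409. Nek7, a kinase needed for inflammasome assembly, had 20.98, 22.9 and 21.4 FPKM with TNF-α and 7.56, 22.04 and 7.38 FPKM with TNF-α+WBT, so that replicate 2 lay among the TNF-α libraries. Without it the log2 fold change was -1.53 in place of -1.01. Nek7 shares exon bases with Gm28501.

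Small nucleolar RNAs, which guide RNA modification and lie inside host genes, made up 3 of these calls. Snord16a, within Rpl4, was listed at 12.6, 13.0 and 8.18 FPKM with TNF-α and at 0.0875, 0.0541 and 0.0771 FPKM with TNF-α+WBT, and in Con at 13.9, 18.7 and 0.0626 FPKM. At most 28.9 estimated fragments lay behind a TNF-α or TNF-α+WBT value, and the host gene Rpl4 had a log2 fold change of 0.04. Gm22879 within Rpl7a held at most 4.5 fragments and Gm24299 within Taf1d at most 6.5. These RNAs carry no poly(A) tail, and poly(A) RNA was sequenced.

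Transcript use was compared within the 6305 genes that had at least 2 transcripts of 1 FPKM or more. A test of each transcript's share found 11 genes (0.174%), and the diffSplice test of limma found 93 (1.48%), with 9 genes in both. The share test took shares among a gene's transcripts with a mean of at least 1 FPKM. The percentages printed below are of all transcripts of the gene, so the p-values belong to shares that can differ from them. In simulated data with no change and unequal spread, diffSplice made calls of a like order, so its 93 are not taken as findings. At the level of single transcripts 8 of 27676 (0.0289%) passed an adjusted p of 0.05 in limma, 4 higher and 4 lower. Of the 11 gene totals 1, that of Mad1l1, had an unadjusted p under 0.05. Ipo11, Dgkz, Abraxas2, Mad1l1, Rtn4 and 9030025P20Rik share exon bases with another annotated gene. By listed FPKM, the 11 genes fall into those in which TNF-α stood apart from the other groups and those in which TNF-α+WBT did. Transcript FPKM divide a gene's fragments among its annotated transcripts, and in some genes this division differed between replicates. Rtn4-204 was listed at 2.79, 2.60 and 94.4 FPKM with TNF-α+WBT. Whether the differences below lie in splicing or in that division was not tested.

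In Pon3, a lactonase of the paraoxonase family, the coding transcript Pon3-201 stood at 12.7, 15.02 and 14.3 FPKM with TNF-α, at 3.28, 4.26 and 2.84 FPKM with TNF-α+WBT and at 3.00 to 3.51 FPKM in Con. It made up 77.1 ± 6.19% of the gene with TNF-α and, once WBT was added, 19.97 ± 3.89% (SD, n = 3 each, adjusted p = 0.00645, limma on shares). Pon3-203, annotated for nonsense-mediated decay, took the reverse course, from 15.6 ± 7.24 to 67.0 ± 1.98%. The transcripts have annotated starts of 5256286 (Pon3-201) and 5256233 (Pon3-203), and among their junctions they part at one exon end. On the minus strand of chromosome 6, the upstream exon ends at 5246278 in Pon3-201 and 230 bases later at 5246048 in Pon3-203, and both join 5240978. The junctions that differ are shown, the upstream exon in lower case and the downstream exon in capitals.
Pon3-201: gcttttatctccactGGATTAAAATATCCG
Pon3-203: tcagctgcatgctcgGGATTAAAATATCCG

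Ipo11, an importin that carries proteins into the nucleus, had Ipo11-205 at 6.25, 5.24 and 8.69 FPKM with TNF-α and at no more than 0.0136 FPKM with TNF-α+WBT. Con held 0 to 0.528 FPKM. Its share fell from 44.7 ± 11.2 to 0.0627 ± 0.0546% (SD, n = 3 each, adjusted p = 0.0263, limma on shares), and Ipo11-202 rose from 48.8 ± 12.6 to 95.7 ± 1.29%. The transcripts differ in their annotated starts, which are 106936958 for Ipo11-202 and 106925150 for Ipo11-205. Ipo11-205 also holds a coding exon of 27 bases that Ipo11-202 lacks, at chr13:106857499-106857525 on the minus strand.
Ipo11-205 exon: AGCTTCCATCCAGCTGCCTTGCAAACG

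Gmeb1, a transcription factor that modulates the glucocorticoid response, had Gmeb1-203 at 0.000728 to 0.00163 FPKM with TNF-α and at 4.50, 4.45 and 4.87 FPKM with TNF-α+WBT, and Con held 4.84 to 6.96 FPKM. Gmeb1-207 stood at 3.30, 3.43 and 3.15 FPKM with TNF-α and between 0.135 and 0.202 FPKM after addition of WBT. Both transcripts passed on their own (adjusted p of 0.000213 and 0.0309, limma), while the gene total stood at 7.30 to 7.95 and at 7.30 to 8.24 FPKM. They are annotated with lengths of 4632 and 6523 bases. Dgkz, a diacylglycerol kinase, followed with Dgkz-202, whose share was 7.86 ± 1.89% with TNF-α and, once WBT was added, 0.000852 ± 0.00148% (SD, n = 3 each).

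Rtn4, the reticulon also known as Nogo, had the highest values of this kind. Rtn4-202 stood at 64.0, 64.8 and 70.3 FPKM with TNF-α, at 2.61, 3.99 and 9.13 FPKM with TNF-α+WBT and at 2.45 to 2.53 FPKM in Con. The share fell from 67.8 ± 1.44 to 7.74 ± 1.38% (SD, n = 3 each, adjusted p = 5.1e-05, limma on shares). The gene total was 93.3, 97.97 and 102 FPKM with TNF-α but 38.5, 42.8 and 128 FPKM with TNF-α+WBT, where replicate 3 held 94.4 FPKM in Rtn4-204. Without that replicate the log2 fold change of the Rtn4 total was -1.27 (adjusted p = 0.00074, limma), where it was -0.71 with all libraries. Rtn4 shares exon bases with Eml6.

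In Abraxas2, Cwf19l1, Gga1 and Slc35c2, TNF-α+WBT stood apart from both TNF-α and Con. Abraxas2, a scaffold of a deubiquitinase complex, had Abraxas2-201 at 2.03, 1.44 and 1.53 FPKM with TNF-α and at 7.04, 6.23 and 6.10 FPKM with TNF-α+WBT, and Con held 1.85 to 2.51 FPKM. The share rose from 18.0 ± 2.14 to 70.3 ± 6.38% (SD, n = 3 each, adjusted p = 0.0202, limma on shares), and that of Abraxas2-203, annotated for nonsense-mediated decay, was 46.8 ± 4.35 and 6.01 ± 10.4%. Abraxas2-201 holds 38 coding bases (chr7:132876598-132876635, plus strand) that Abraxas2-203 skips. Their annotated ends differ too, at 132859225 and 132885111 for Abraxas2-201 and at 132859249 and 132885108 for Abraxas2-203.
Abraxas2-201: tagaccaaaccgcagGTATAATCAAAGGAT
Abraxas2-203: tagaccaaaccgcagGCAATACTAGCCAGC

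In Cwf19l1 the coding transcript Cwf19l1-201 stood at 3.64, 3.22 and 3.66 FPKM with TNF-α and at 0.251, 0.264 and 0.0161 FPKM with TNF-α+WBT. Cwf19l1-205, annotated without a coding sequence, stood at 0.255 to 0.346 and at 3.03 to 3.37 FPKM. The share of Cwf19l1-205 rose from 6.21 ± 1.27 to 62.7 ± 5.17% (SD, n = 3 each, adjusted p = 0.000935, limma on shares), and Con lay with TNF-α. The annotated ends differ, at 44108637 and 44135876 for Cwf19l1-201 and at 44109416 and 44135625 for Cwf19l1-205. The junctions into the shared exon at 44133084 (minus strand of chromosome 19) also differ as shown, with that exon in capitals.
Cwf19l1-201: gaagccactgcgtctCTTGGCCTGTGGAGA
Cwf19l1-205: gcacacgctgtggagCTTGGCCTGTGGAGA

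Gga1, a clathrin adaptor of the Golgi, had Gga1-203, annotated for nonsense-mediated decay, listed at 0 in all TNF-α and Con libraries and at 5.14, 3.83 and 1.73 FPKM with TNF-α+WBT. The transcripts differ by 4 coding bases at the start of 1 exon (chr15:78889716-78889719, plus strand). They also differ in their annotated ends, which are 78877190 and 78894585 for Gga1-201 and 78877551 and 78894581 for Gga1-203. Gga1-201 remained the main transcript at 17.4 to 21.98 FPKM.
Gga1-201: ccagctccattcctgGAAGCACGTCAGCCC
Gga1-203: ccagctccattcctgCACGTCAGCCCTGCT

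The remaining 3 genes of the share test were 9030025P20Rik, Mad1l1 and Slc35c2, and the last 2 did not pass diffSplice. In 9030025P20Rik the share of 9030025P20Rik-201 was 55.7% with TNF-α, 37.2% with WBT added and 34.3% in Con. Slc35c2-210 was listed at 0 in all TNF-α+WBT libraries and at 4.19, 2.43 and 3.84 FPKM with TNF-α and 3.29 to 4.81 FPKM in Con. Mad1l1-206 stood at 3.88, 3.68 and 5.01 FPKM with TNF-α and between 0.0472 and 0.190 FPKM after addition of WBT.

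**Figure D5:**
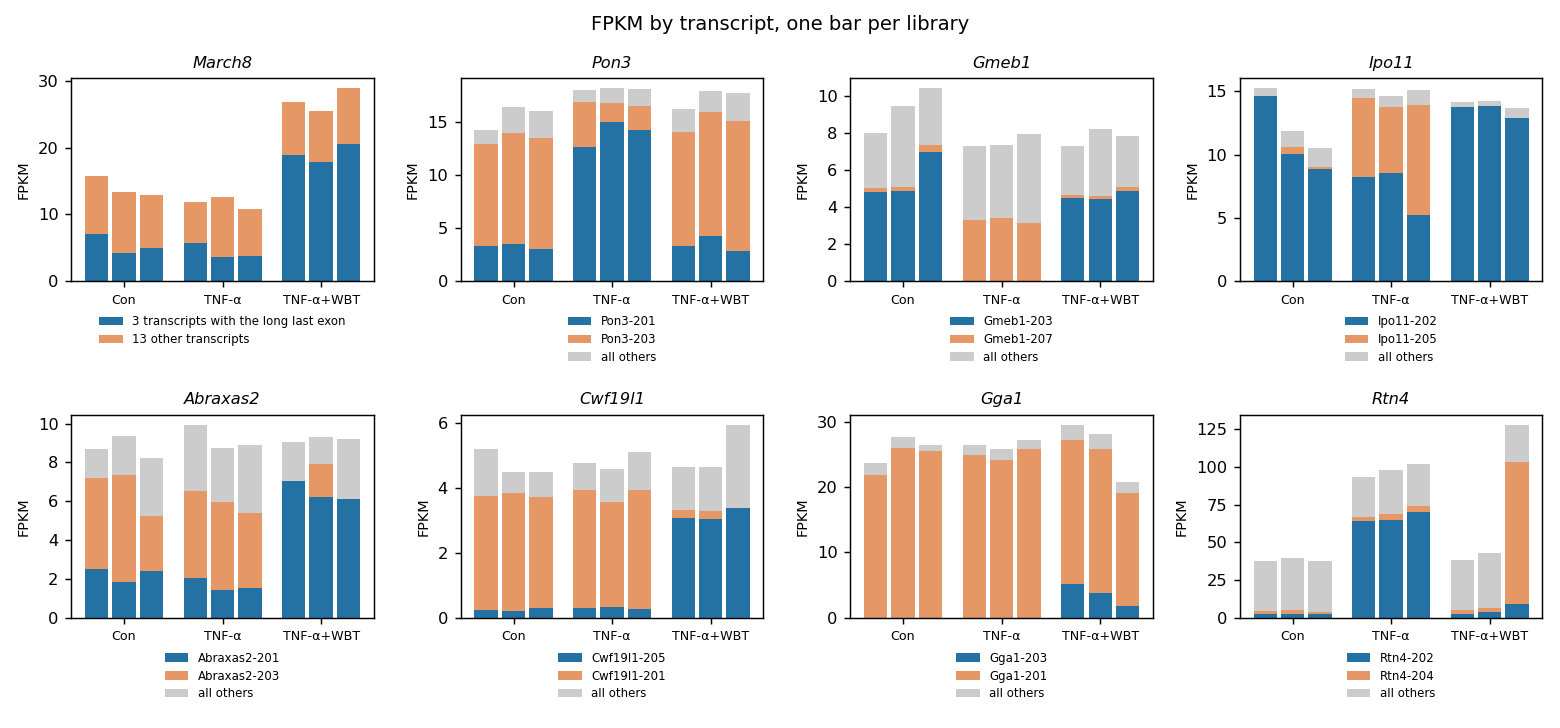
FPKM (vertical axis) of 8 genes by transcript, with 1 stacked bar for each library of the 3 groups. March8 is divided into the 3 transcripts with the long last exon and the 13 others, and the other genes into 2 named transcripts and all others. In Pon3, Gmeb1, Ipo11 and Rtn4 the TNF-α bars differ in make-up from both other groups, in Abraxas2, Cwf19l1 and Gga1 the TNF-α+WBT bars do, and Rtn4 in TNF-α+WBT replicate 3 stands at 128 FPKM in total.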

How the data were processed

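Poly(A) RNA was sequenced as paired ends with a TruSeq kit. The deposited gene and transcript tables hold FPKM, which the authors computed, and their workflow names HISAT2, StringTie and Ballgown. Versions, build and annotation are not given in the sources used here, and neither is strand, so a gene and its antisense partner cannot be told apart. The authors' fold changes and p-values were not used. Coordinates are from GENCODE M21 (GRCm38), which held 98.1% of the gene IDs.

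Genes and transcripts with a mean of at least 1 FPKM over the 6 libraries were fitted with limma 3.58.1 in R 4.3.3 on log2(FPKM + 0.1), all 9 libraries sharing one estimate of the spread, with an intensity trend and Benjamini-Hochberg adjustment. Fold changes are on this scale, which understates low genes. Transcript use was tested with diffSplice and, chosen after seeing the data, with limma on the arcsine square root of shares. Those shares were taken among the transcripts that passed the filter on the mean. Tests were checked on simulated data, where diffSplice made calls with no change present when transcripts differed in spread, and the share test missed changes when the spread was wide. Genes named for transcript use are those past the share test. Depth was estimated from low FPKM values, of which 54 to 57.8% lay within 0.1 of a whole fragment (20% by chance), so fragments are approximate. Intervals cover the spread between libraries.

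Named genes were those past an adjusted p of 0.05, the 8 with the smallest p in each direction among genes whose groups do not overlap, those past the study's limits (p taken as unadjusted), and members of 40 lists. Members and lists were chosen with earlier results of these data known. Promoters are from RefSeq (GRCm38.p6). Alternatives were other pseudocounts, filters, scalings, weights, voom, a replicate block, 6 libraries only, leaving out each library and an overlap filter.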

Additional observations from a re-analysis of the deposited data

How the results depend on the processing

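The 1 gene past an adjusted p of 0.05 became 2 with the 6 libraries alone, 5 with voom of estimated fragments, 0 with the replicate block and 0 to 7 when a library was left out. March8 had an adjusted p of 0.0842 with the block and of 0.0607 without TNF-α+WBT replicate 1. Replicate numbers were not taken to pair the samples, since over all genes the deviations of same-numbered libraries correlated at -0.06 to 0.0922 and those of different numbers at -0.0818 to 0.0804. The NF-κB target, DNA replication and mitosis medians ranked the replicates alike in all 3 groups, and with the block 17, 12 and 9 of their genes were called lower, where 15, 12 and 8 were without it. Whether the replicate numbers mark a batch was not tested. Voom added Tfrc, Atf3, Ccl2 and Selenoi, and the 6 libraries added Snord16a. The 7 calls came without TNF-α+WBT replicate 2, Nek7 and Afg3l1 among them. The 14 genes past 2-fold and an unadjusted p of 0.05 became 8 with a pseudocount of 1, 284 without the filter on the mean, 4 at a mean of at least 5 FPKM, 3 without genes that share exons (7910 tested, chosen after seeing the data) and 14 to 32 when a library was left out. The 887 genes with an unadjusted p under 0.05 became 1605 without the filter. The 8 transcripts became 34 without the filter, 1 at 5 FPKM, 18 with the 6 libraries, 1 with the replicate block and 6 to 27 when a library was left out. The 93 genes of diffSplice became 340 without the filter, 12 at 5 FPKM, 11 with the share test and 98 to 149 when a library was left out. The direction reversed for Chuk with voom (0.0331), and the log2 fold change of Eef1a1 was 0.00 with quantile normalization, which is no difference. The causes were not tested beyond the smaller or larger sets tested. The NF-κB target median stayed between -0.27 and -0.20 when a library was left out, that of DNA replication between -0.19 and -0.10 and that of mitosis between -0.24 and -0.12. Genes of 1 to 5 FPKM had a median standard error of 0.164, which limits what could be told there.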

Other observations

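In the hypoxia response list 14 of 17 genes had a positive log2 fold change with WBT, at a median of 0.10, and the 1 gene with an unadjusted p under 0.05, Hif1a, was lower. The list medians relative to TNF-α were -0.22, -0.01 and -0.36 in Con, -0.01, 0.03 and -0.03 for the TNF-α libraries, and 0.05, 0.24 and -0.00 after addition of WBT, so that replicate 2 was the highest of each group.

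Of all genes tested 3.32% were higher and 3.66% lower at an unadjusted p under 0.05. In the glucocorticoid response list 3 of 14 genes were called higher by that p and 1 lower, at a median of 0.09, and the 3 ran from 1 (without TNF-α replicate 3) to 4 when a library was left out, and the 1 became 0 without any 1 TNF-α replicate or TNF-α+WBT replicate 3. Among 12 hosts of small nucleolar RNAs, 8 of them positive, 3 were called higher and none lower, and 1 each way without TNF-α+WBT replicate 1. In the list of matrix proteases and inhibitors 15 of 24 were negative and 5 were called lower, 3 without TNF-α replicate 1, TNF-α replicate 2 or TNF-α+WBT replicate 1, at a median of -0.07 that was -0.01 without TNF-α replicate 2. No gene of these lists passed after adjustment in limma.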
